A study of Mus musculus with 19 samples.

Results

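The comparison described here was between WT UUO kidneys from mice given recombinant CD5L (rCD5L, n = 5) and WT UUO kidneys from mice given PBS (n = 5), read across every gene of the count table. These were 10 of the 19 kidneys sequenced, chosen by their genotype and treatment labels, and the question was what added CD5L does to gene expression in kidneys of mice that make their own. All mice were males on a C57BL/6J background, 8–9 weeks old, whose left ureter had been tied off and cut (unilateral ureteral obstruction, UUO). The rCD5L mice received 0.5 mg of protein per day by intraperitoneal injection, the PBS mice the same volume of buffer, and whole kidneys were taken after heparin perfusion 12 days after surgery. The WT mice carried both an obstructed ureter and a working Cd5l gene in both arms, so the comparison held surgery, strain, sex and genotype constant. The other 9 kidneys came from CD5L KO mice treated with PBS (n = 4) or rCD5L (n = 5) and served to test whether the WT response differed from theirs and in 1 alternative fit.

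CD5L, also called apoptosis inhibitor of macrophages, is a secreted scavenger-receptor protein made mainly by tissue macrophages. It circulates bound to IgM, coats dead cells and debris, and is taken up together with them by phagocytes and by injured tubular cells that carry KIM-1, the product of Havcr1. An obstructed kidney loses proximal tubule function, fills with macrophages and lymphocytes, and lays down collagen. Proximal tubule cells are normally rich in mitochondria and burn fatty acids. Oxidative stress in them is countered by Nrf2, a transcription factor that drives genes for antioxidant and conjugating enzymes through a short DNA motif, the antioxidant response element.

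Expression was measured as read counts per gene and is given here as CPM, the count scaled to a common library total after TMM correction, which keeps most genes level between libraries. Totals were 17917491 to 23165536 counts with PBS and 18694817 to 23847090 with rCD5L, and Spearman correlations between kidneys were 0.982 to 0.988. Kidneys of a group differed by more than counting noise, with a chi-square per degree of freedom of 6.63 to 24.4, so no library was a copy of another. The Cd5l transcript itself was near the detection floor and was not tested. It gave 13, 12, 6, 9 and 5 counts in PBS replicates 1 to 5 and 9, 3, 15, 3 and 11 counts in rCD5L replicates 1 to 5, and since the injected protein brings no transcript, the treatment labels could not be checked from it. Markers of the labelled tissue were present, with Lrp2 (megalin, the main endocytic receptor of the proximal tubule) at 263 to 440.3 CPM with PBS and 266 to 351 CPM with rCD5L.

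Among the PBS kidneys, 2 stood apart. PBS replicate 3 had a summed level of 14906 CPM over 37 proximal tubule genes, against 8001 to 10539 CPM in the other PBS kidneys, and only 209.8 CPM over 12 urothelial genes, against 514 to 613 CPM. PBS replicate 1 had 13061 CPM over 18 antigen presentation genes, against 7652 to 8999 CPM in the other PBS kidneys.

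No gene passed the main test. Of 17455 genes tested with edgeR's quasi-likelihood test, 0 (0%) had a Benjamini-Hochberg adjusted p under 0.05, and the smallest adjusted p was 0.0952, shared by 11 genes. At an unadjusted p under 0.05, called the unadjusted threshold from here on, 1451 genes (8.31%) had a higher mean with rCD5L and 1346 (7.71%) a lower mean. DESeq2, a second count model that gave 13054 of the genes an adjusted p, called 234 genes higher (1.79%) and 308 lower (2.36%) at an adjusted p under 0.05. All 542 were past the unadjusted threshold in edgeR, where their median adjusted p was 0.121. The values of the groups did not overlap at all for 350 genes that were higher with rCD5L (2.01%) and 280 that were lower (1.6%).

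Effects were small in size. The median log2 fold change over all tested genes was 0.0046, 51.3% of genes had a positive one, and 86.3% of the genes past the unadjusted threshold differed by less than 0.5 on the log2 scale. An absolute log2 fold change of 1 or more at that threshold was found for 36 genes with a higher and 26 with a lower mean, of which 15 had a mean log2 CPM of at least 1. The biological coefficient of variation between WT kidneys was 11.6%. Since 0 genes passed, gene groups are described below by how many members lay in each direction, how many were past the unadjusted threshold and their median, to be read against the 51.3% and the 8.31% and 7.71% found over all genes. Each list was also read with each WT kidney left out in turn. Where that changed the sign of a whole list's median or moved it by over 1.5 times, the lowest and highest of these leave-one-out medians follow it with the kidney left out. Leave-one-out counts of members past the unadjusted threshold are given in the same way. With PBS replicates 1 to 5 left out in turn, the shares of all genes past that threshold were 7.68%, 7.73%, 7.82%, 8.17% and 8.1% higher and 7.64%, 7.28%, 6.28%, 7.55% and 7.64% lower. With rCD5L replicates 1 to 5 left out in turn they were 7.95%, 8.7%, 7.68%, 6.68% and 6.46% higher and 7.11%, 8.54%, 6.63%, 6.16% and 6.16% lower. Values are from whole tissue, in which fewer cells of a type and less RNA per cell cannot be told apart.

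The 11 genes shown here, of smallest p with a higher mean, had log2 fold changes from 0.28 (Zfp236) to 0.57 (Tlr9). Nfix (ENSMUSG00000001911, chr8:84699876-84800344), which encodes a nuclear factor I transcription factor, stood at 79.3, 76.3, 80.6, 84.3 and 78.1 CPM in PBS replicates 1 to 5 and at 95.7, 101, 96.8, 98.7 and 107 CPM in rCD5L replicates 1 to 5. The groups did not overlap, and the log2 fold change was 0.33 ± 0.046 (SE), with an adjusted p of 0.0952 by edgeR's quasi-likelihood test. Notch1 (ENSMUSG00000026923, chr2:26457903-26516663), the receptor for Jagged and Delta ligands, stood at 38.4, 46.9, 44.3, 46.2 and 45.3 CPM in PBS replicates 1 to 5 and at 56.0, 53.3, 58.5, 58.2 and 60.5 CPM in rCD5L replicates 1 to 5. Every rCD5L kidney lay above every PBS kidney, at a log2 fold change of 0.37 ± 0.061 and an edgeR adjusted p of 0.0952. Tlr9 (ENSMUSG00000045322, chr9:106222598-106226883), the endosomal sensor of unmethylated DNA in dendritic cells, B cells and macrophages, stood at 10.5, 10.8, 8.74, 11.4 and 9.48 CPM in PBS replicates 1 to 5 and at 14.4, 14.7, 13.6, 17.0 and 16.1 CPM in rCD5L replicates 1 to 5. It had the largest fold difference of the 11, a log2 fold change of 0.57 ± 0.10 and an edgeR adjusted p of 0.0952. Sox4, a transcription factor of developing and injured epithelium, had means of 68.9 ± 3.91 CPM with PBS and 91.2 ± 10.4 CPM with rCD5L (SD, n = 5 each).

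The remaining genes of that group were Tnrc18 (log2 fold change 0.36), Prex1, an activator of the GTPase Rac (0.37), Zfp236, a zinc finger protein (0.28), Sorbs2, a scaffold of cell adhesions (0.31), Irf2bpl (0.32), Prrc2b (0.29), and Slc27a3, a long-chain acyl-CoA synthetase (0.35). Their adjusted p in edgeR's quasi-likelihood test was 0.0952 for Tnrc18 and 0.104 for each of the others. In all 11 genes the groups did not overlap, and DESeq2 gave adjusted p values from 4.25e-06 for Nfix to 0.00464 for Slc27a3.

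The 12 genes of smallest p with a lower mean had log2 fold changes from -0.30 (Pgm2) to -0.86 (Nat8f5). Gpihbp1 (ENSMUSG00000022579, chr15:75596628-75599481), the capillary endothelial protein that anchors lipoprotein lipase, stood at 47.0, 60.7, 48.8, 43.7 and 41.9 CPM in PBS replicates 1 to 5 and at 35.1, 34.5, 34.4, 22.7 and 31.4 CPM in rCD5L replicates 1 to 5. Every rCD5L kidney was below every PBS kidney, at a log2 fold change of -0.61 ± 0.12 and an adjusted p of 0.104 by edgeR's quasi-likelihood test. Esm1, a proteoglycan secreted by endothelium, had means of 55.4 ± 4.42 CPM with PBS and 39.4 ± 5.36 CPM with rCD5L (SD, n = 5 each), a log2 fold change of -0.49 ± 0.088. Nat8f5, an N-acetyltransferase family member, had the largest difference of the 12, with means of 12.2 ± 2.74 CPM with PBS and 6.75 ± 1.28 CPM with rCD5L (SD, n = 5 each) and a log2 fold change of -0.86 ± 0.16. It overlaps its close relative Nat8f6 in the annotation, so reads could be split between them.

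Ddc, which makes dopamine in proximal tubule cells, had means of 27.5 ± 3.20 CPM with PBS and 19.4 ± 2.08 CPM with rCD5L (SD, n = 5 each). Mif, a cytokine stored in many cell types, had means of 159.6 ± 13.6 CPM with PBS and 125 ± 7.82 CPM with rCD5L (SD, n = 5 each). Among enzymes, the log2 fold changes were -0.32 for Nipsnap1, a mitochondrial matrix protein, -0.41 for Cda, cytidine deaminase, -0.39 for Qprt, which feeds NAD synthesis, -0.30 for Pgm2, a phosphoglucomutase, and -0.36 for Dgat2, the last step of triglyceride synthesis. Hebp1, a heme-binding protein, was at -0.31, and Afap1l1, an actin-associated protein, at -0.37. Adjusted p in edgeR was 0.0952 for Nipsnap1, Afap1l1, Cda, Hebp1 and Esm1 and 0.104 for the other 7, DESeq2 gave adjusted p values of at most 0.00200, and the groups did not overlap for any of the 12. All 23 of these genes were taken for their small p, so the absence of overlap among them is a description of that choice.

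**Figure D1:**
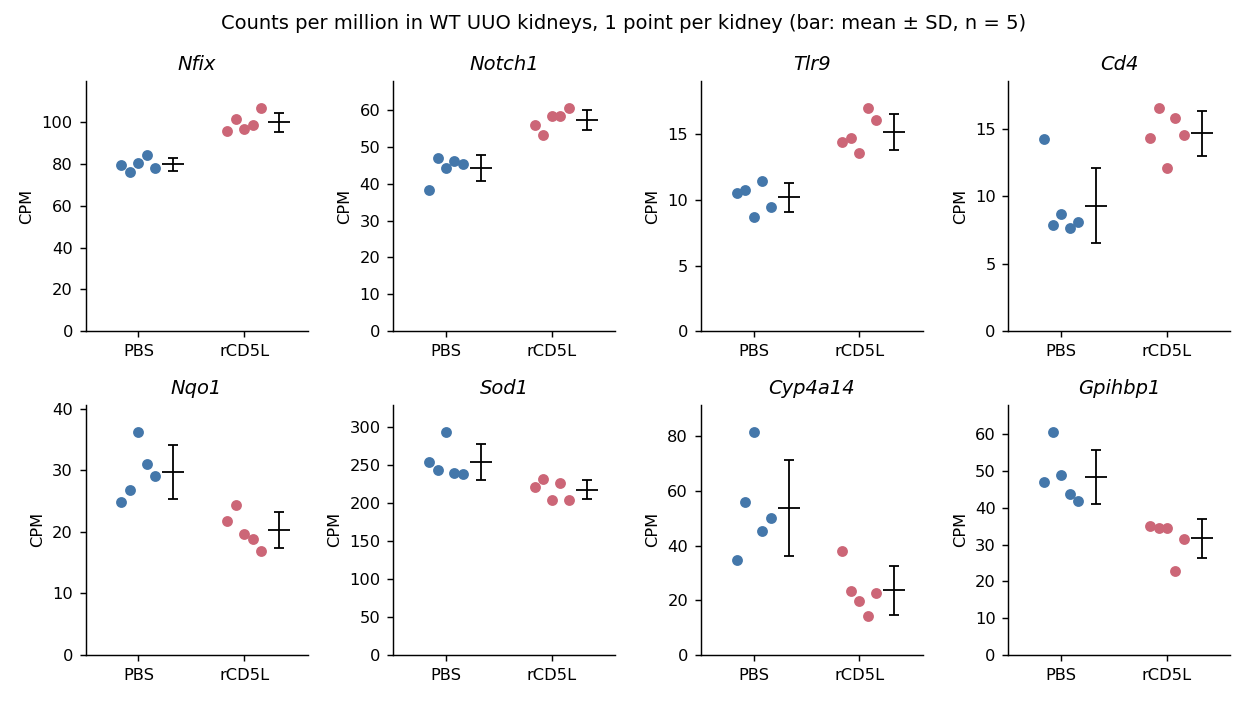
TMM-scaled CPM (linear axes, each starting at 0) of 8 genes in the 5 PBS and 5 rCD5L WT kidneys, a point per kidney, with the mean and SD as a bar and whiskers. The groups do not overlap for Nfix, Notch1, Tlr9, Nqo1, Sod1 and Gpihbp1, whereas PBS replicate 1 lies inside the rCD5L range for Cd4.

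Proximal tubule genes had lower means in the rCD5L kidneys. Of 37 transporters, endocytic receptors and enzymes of this segment, 35 had a negative log2 fold change, 19 of them past the unadjusted threshold, and the median was -0.36, with leave-one-out medians of -0.42 without PBS replicate 1 to -0.24 without PBS replicate 3. Cyp4b1, a monooxygenase, stood at 339, 432, 651, 438 and 413 CPM in PBS replicates 1 to 5 and at 317, 391, 277, 228 and 281 CPM in rCD5L replicates 1 to 5. PBS replicate 3 was the highest kidney and 4 of 5 rCD5L kidneys were below every PBS kidney, with a log2 fold change of -0.61 ± 0.16 and an adjusted p of 0.119 by edgeR. Abcc2, which exports conjugated anions into the urine, had means of 134 ± 21.3 CPM with PBS and 104 ± 8.94 CPM with rCD5L (SD, n = 5 each), and Pck1, the control step of gluconeogenesis, of 280.3 ± 56.5 CPM with PBS and 192 ± 33.1 CPM with rCD5L (SD, n = 5 each). The uptake receptors were closer, with log2 fold changes of -0.17 ± 0.12 for Lrp2 and -0.17 ± 0.10 for Cubn. Leave-one-out counts past the unadjusted threshold were 14 without PBS replicate 3 to 27 without PBS replicate 1. The summed level of the list was 8001 to 14906 CPM with PBS and 7049 to 9809 CPM with rCD5L, and the groups overlapped.

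In 29 genes of the thick limb, distal tubule and collecting duct, 17 had positive and 12 negative log2 fold changes, with a median of 0.017 and 2 past the unadjusted threshold. Leave-one-out medians were -0.045 without rCD5L replicate 1 to 0.11 without PBS replicate 3, the number of positive genes was 6 without PBS replicate 2 to 20 without PBS replicate 3, and the number past the threshold was 1 without PBS replicate 4, rCD5L replicate 3 or rCD5L replicate 5 to 4 without PBS replicate 2 or PBS replicate 3. Among 10 podocyte markers 9 were on the positive side (median 0.10, or 0.064 without rCD5L replicate 3 to 0.14 without PBS replicate 4) and 3 were past it, or 1 without PBS replicate 3, rCD5L replicate 3 or rCD5L replicate 5 to 4 without rCD5L replicate 1, and 1 with an offset for gene length. Urothelial markers were below zero in 12 of 12 (median -0.19), with 0 past the threshold. Leave-one-out medians were -0.40 without rCD5L replicate 2 to -0.013 without rCD5L replicate 4, the number of them below zero was 6 to 12, the 6 without PBS replicate 1 or rCD5L replicate 4, the number past the threshold was 0 to 3, the 3 without PBS replicate 3, and limma on log2(FPKM + 1) gave a median of -0.11.

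Fuel metabolism showed the same side. Of 30 fatty acid oxidation genes, 29 had a lower mean with rCD5L, 17 past the unadjusted threshold, and the median was -0.17. Cyp4a14, which hydroxylates fatty acids and is a target of PPARα, stood at 34.7, 55.9, 81.7, 45.5 and 50.1 CPM in PBS replicates 1 to 5 and at 38.1, 23.3, 19.8, 14.1 and 22.7 CPM in rCD5L replicates 1 to 5. It was lower than every PBS kidney in 4 of 5 rCD5L kidneys, at a log2 fold change of -1.18 ± 0.24 and an edgeR adjusted p of 0.104. The peroxisomal enzymes Acaa1b and Ehhadh had log2 fold changes of -0.56 ± 0.13 and -0.50 ± 0.13. Leave-one-out counts past the threshold were 11 without rCD5L replicate 4 to 19 without PBS replicate 1.

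In glycolysis, gluconeogenesis and the citric acid cycle, 36 of 38 genes had a lower mean, 22 past the unadjusted threshold and 6 without overlap between the groups, with a median of -0.17. Leave-one-out counts past it were 17 without PBS replicate 3 to 27 without PBS replicate 1. The 5 gluconeogenesis genes had a median of -0.50 and all were past the threshold, or 3 to 5, the 3 without PBS replicate 3 or rCD5L replicate 4. Sdhb, the iron-sulphur subunit of succinate dehydrogenase, stood at 131, 133, 159.5, 139 and 146 CPM in PBS replicates 1 to 5 and at 120.3, 122, 119, 119.6 and 120.2 CPM in rCD5L replicates 1 to 5. The rCD5L kidneys were tightly grouped below all PBS kidneys (log2 fold change -0.24 ± 0.055, edgeR adjusted p 0.107). Tpi1, triosephosphate isomerase, had means of 503 ± 33.0 CPM with PBS and 434 ± 17.9 CPM with rCD5L (SD, n = 5 each). Synthesis of fatty acids and sterols was mixed, with 16 genes on the positive and 18 on the negative side and a median of -0.015, or -0.040 without rCD5L replicate 4 to 0.014 without rCD5L replicate 3. Sphingolipid genes were on the negative side in 25 of 35 (median -0.081). Past the unadjusted threshold were 7 on the lower and 1 on the higher side. These were 5 and 2 without PBS replicate 1, and 11 and 1 with the offset for gene length. For Sptlc2, a subunit of the first enzyme of ceramide synthesis, and Cers2, a ceramide synthase, the groups did not overlap. Their log2 fold changes were -0.17 ± 0.050 and -0.12 ± 0.042.

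**Figure D2:**
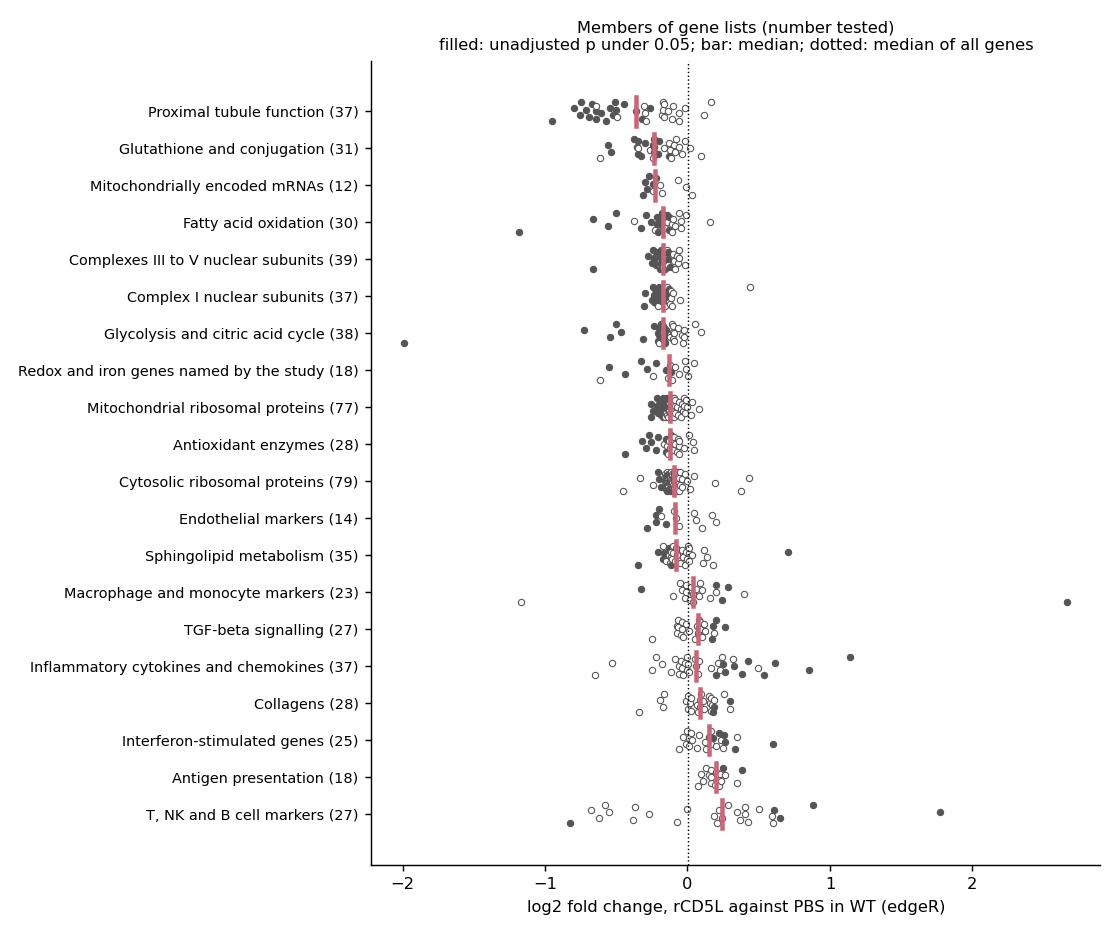
Difference on the log2 scale between rCD5L and PBS WT kidneys for each tested member of 20 gene lists, a point per gene, filled where the unadjusted edgeR p is under 0.05. The bar marks the list's median and the dotted line the median of all tested genes, and the medians of the metabolic, mitochondrial and proximal tubule lists lie to the left of that line.

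The respiratory chain lists lay almost wholly on one side. Nuclear genes for complex I had a lower mean with rCD5L in 36 of 37 cases, 25 past the unadjusted threshold and 4 without overlap, at a median of -0.17. For complexes III to V it was 39 of 39, again 25 past the threshold and 5 without overlap, at a median of -0.17, with leave-one-out medians of -0.20 without PBS replicate 2 to -0.11 without PBS replicate 3. Ndufv1, the NADH-binding subunit of complex I, stood at 181, 176, 213, 174 and 184 CPM in PBS replicates 1 to 5 and at 156, 158, 154, 158 and 160.2 CPM in rCD5L replicates 1 to 5. All rCD5L kidneys were below all PBS kidneys, with a log2 fold change of -0.24 ± 0.056 and an edgeR adjusted p of 0.107. Cox6a1, a subunit of cytochrome c oxidase, stood at 417, 409.8, 505, 412 and 412 CPM in PBS replicates 1 to 5 and at 377, 390.0, 347, 357 and 364 CPM in rCD5L replicates 1 to 5. PBS replicate 3 was far above the rest, yet the other PBS kidneys were still above every rCD5L kidney (log2 fold change -0.23 ± 0.063, edgeR adjusted p 0.121). Cox5b of the same complex, Uqcrq of complex III, Ndufb10 and Ndufv3 had log2 fold changes between -0.30 and -0.21.

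Leave-one-out counts past the unadjusted threshold on the lower side were 15 without PBS replicate 3 or rCD5L replicate 5 to 28 without PBS replicate 2 for complex I, and 11 without PBS replicate 3 to 27 without PBS replicate 2 for complexes III to V. The 12 tested mRNAs of the mitochondrial genome had lower means in 11 cases (median -0.23, or -0.28 without rCD5L replicate 2 to -0.14 without PBS replicate 3), 6 past the threshold. When PBS replicate 3 was left out, the means were lower in 9 cases and 0 were past it, and over all kidneys left out in turn the count was 0 without PBS replicate 3 or rCD5L replicate 5 to 8 without PBS replicate 1. Levels of mt-Cytb were 4913 to 7635 CPM with PBS and 4085 to 5710.0 CPM with rCD5L, and those of mt-Co1 11401 to 16043 and 9890.5 to 12004 CPM. The mitochondrial share of all counts was 2.76% to 3.87% with PBS and 2.34% to 3.05% with rCD5L. Nuclear genes of the chain are known to share promoter sites for NRF-1, nuclear respiratory factor 1, a transcription factor distinct from Nrf2. The letters GCGCA followed after 1 base by GCGC, searched on both strands, were found in 7 of 33 promoters of complex I genes (21.21%) and 8 of 29 of complexes III to V (27.59%), against 1402 of all 27025 promoters of the same 300-base length (5.188%). The promoter of Cox6a1, from 250 bases before the start of the gene to 50 after, is shown because it holds 2 such matches, at bases 89 to 98 and 134 to 143 of the printed run, in capitals (RefSeq, GRCm38.p6, chr5:115348909-115349208, minus strand).
Cox6a1: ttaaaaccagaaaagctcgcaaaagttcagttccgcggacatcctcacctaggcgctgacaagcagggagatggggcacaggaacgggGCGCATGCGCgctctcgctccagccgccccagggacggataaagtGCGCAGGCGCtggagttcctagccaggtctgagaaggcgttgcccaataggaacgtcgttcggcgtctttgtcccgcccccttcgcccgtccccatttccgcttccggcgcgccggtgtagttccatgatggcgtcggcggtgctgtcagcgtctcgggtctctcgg

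Genes for making proteins were also on the lower side, by less. Cytosolic ribosomal protein genes had a lower mean in 74 of 79 cases, 16 past the unadjusted threshold (median -0.094), and mitochondrial ribosomal protein genes in 74 of 77, 32 past it (median -0.12). Leave-one-out counts were 9 without rCD5L replicate 5 to 37 without rCD5L replicate 2 for the cytosolic and 15 without PBS replicate 3 to 35 without PBS replicate 4 for the mitochondrial ones. Rpl28 and Rpl29, of the large subunit, had log2 fold changes of -0.20 ± 0.054 and -0.21 ± 0.055, and many of these genes have near-identical pseudogenes that could take part of their reads. For Mrpl40, Mrpl52 and Mrpl55 the groups did not overlap, with log2 fold changes of -0.21, -0.18 and -0.26. The proteasome was lower in 32 of 37 genes (median -0.087), 11 past the threshold, or 6 without rCD5L replicate 3 or rCD5L replicate 5 to 15 without rCD5L replicate 2. Among them Psmc1, an ATPase of the cap, had means of 168 ± 5.28 CPM with PBS and 148 ± 7.52 CPM with rCD5L (SD, n = 5 each), Psmd8 of 226 ± 11.6 CPM with PBS and 201 ± 6.54 CPM with rCD5L (SD, n = 5 each) and Psmb5, the chymotrypsin-like core subunit, of 122 ± 6.55 CPM with PBS and 107 ± 7.79 CPM with rCD5L (SD, n = 5 each).

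Gene length, as listed for each gene with its counts, moved with these differences. Across all tested genes, the Spearman correlation of log2 fold change with gene length was 0.240, a description over genes, which are not independent. With the genes in 10 bins of equal number by length, in the shortest bin (median 761.5 bases) 34.5% had a higher mean with rCD5L and the median log2 fold change was -0.091. In the longest bin (median 11688.5 bases) it was 73.5% and 0.066. Each kidney's log2 level was also taken relative to the mean over the WT kidneys. The slope of that difference on log2 length ran from -0.0326 to 0.00348 with PBS and from 0.00244 to 0.0254 with rCD5L. Only the ends of the ranges overlapped. A length offset was taken as a smooth curve of these same log2 fold changes on length and applied to the rCD5L libraries. The correlation after it, -0.0076, was therefore set by construction. With the offset, 6.11% of genes were higher and 7.48% lower at the unadjusted threshold.

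With the offset, the respiratory chain and ribosomal lists lost part of their size. Median gene lengths were 1569 bases for complex I, 1587 for complexes III to V and 1739 for cytosolic ribosomal proteins. Over all tested genes the median was 3835 bases. The offset subtracts the difference fitted to genes of like length, so a loss for lists of short genes was built in. Medians were -0.12 for complex I, -0.11 for complexes III to V, -0.050 for cytosolic and -0.10 for mitochondrial ribosomal proteins, and -0.15 for mRNAs of the mitochondrial genome. The genes past the unadjusted threshold on the lower side were 13 in place of 25 for complex I, 11 in place of 25 for complexes III to V, 7 in place of 16 for cytosolic and 23 in place of 32 for mitochondrial ribosomal proteins, and 0 in place of 6 for mRNAs of the mitochondrial genome. Medians of the proximal tubule (-0.42), fatty acid oxidation (-0.16) and sugar metabolism (-0.17) were near or beyond their values without it, with 19, 13 and 27 genes past the threshold. Of the leading genes, Notch1 had a log2 fold change of 0.30 and Sorbs2 of 0.20 with the offset, while Tlr9 was at 0.58. What sets the length trend was not tested.

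**Figure D3:**
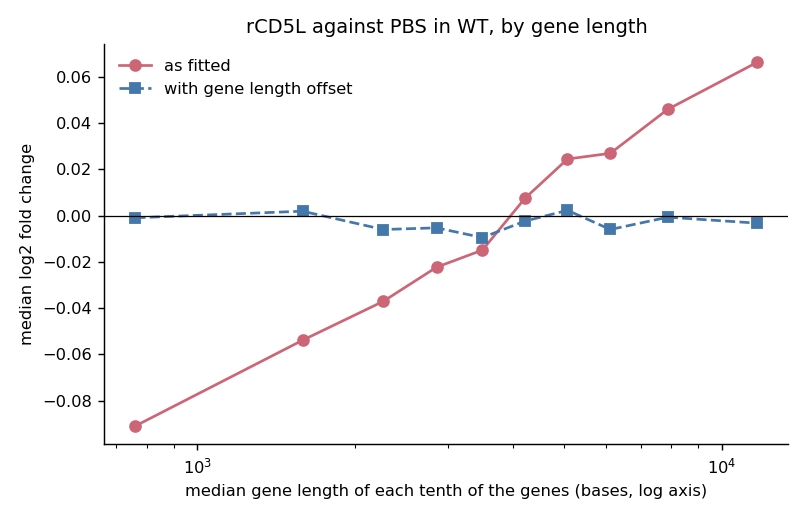
Median difference on the log2 scale between rCD5L and PBS in WT kidneys in 10 bins of gene length, with and without a length offset applied to the rCD5L libraries. Without the offset the median runs from -0.091 in the shortest bin to 0.066 in the longest. With it every bin lies near 0 by construction, since the offset was fitted to these differences.

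Most antioxidant genes had lower means with rCD5L. Of 18 redox and iron genes that the study names, 16 had a negative log2 fold change, 7 past the unadjusted threshold (median -0.13). Among the 18, the 5 iron and related genes were negative in 4 cases, with only Gpx3 past the threshold, or 1 to 2, the 2 without PBS replicate 1. The list was put together with earlier results of these data known and is not independent evidence of its direction. Nqo1, a quinone reductase and classical Nrf2 target, was lower in each rCD5L kidney than in any PBS kidney, at 16.8 to 24.4 against 24.9 to 36.3 CPM, a log2 fold change of -0.55 ± 0.11. Sod1, the cytosolic superoxide dismutase, stood at 254, 244, 294, 239 and 238 CPM in PBS replicates 1 to 5 and at 221, 231, 204, 227 and 204 CPM in rCD5L replicates 1 to 5. Again the groups did not overlap, at a log2 fold change of -0.22 ± 0.064 and an edgeR adjusted p of 0.130, and DESeq2 gave 0.0310. Gstp1, a glutathione transferase, had means of 74.4 ± 9.42 CPM with PBS and 59.3 ± 5.61 CPM with rCD5L (SD, n = 5 each), and Hmox1, which breaks down heme, of 72.3 ± 10.2 CPM with PBS and 59.5 ± 6.07 CPM with rCD5L (SD, n = 5 each).

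The peroxiredoxins Prdx1, Prdx2 and Prdx6, which reduce peroxides, had log2 fold changes of -0.13 ± 0.062, -0.088 ± 0.049 and -0.15 ± 0.052. Their electron donor Txn1 was at -0.12 ± 0.052, and its reductase Txnrd1 was at 0.046 ± 0.067, on the other side of 0. Gclc, the catalytic subunit of glutathione synthesis, was at -0.24 ± 0.13, with PBS kidneys spread over 148 to 285 CPM. The factor itself, Nfe2l2, was at -0.045 ± 0.046, and over the 12 genes of Nrf2 and its partners 6 lay on each side (median -0.0032, or -0.017 without PBS replicate 2 to -0.00067 without rCD5L replicate 1). For the 18 redox and iron genes, leave-one-out counts past the unadjusted threshold were 6 to 9, the 9 without PBS replicate 1 or rCD5L replicate 2.

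The antioxidant response element, written TGACNNNGC and searched on both strands, was found in 5 of the 13 promoters of the redox and iron list that RefSeq gave (38.46%; Prdx1, Txnrd1, Srxn1, Sod1 and Gclm), against 3781 of 27025 promoters (13.99%). The promoters of Sod1 and Prdx1 are shown because both hold a match, Sod1 among the genes whose groups did not overlap and Prdx1 among those whose groups did. Each runs from 250 bases before the start of the gene to 50 after it, 5′ to 3′ on the gene's strand, with the match in capitals on the opposite strand, at bases 195 to 203 for Sod1 (chr16:90220512-90220811, plus strand) and 118 to 126 for Prdx1 (chr4:116685349-116685648, plus strand), from RefSeq, GRCm38.p6.
Sod1: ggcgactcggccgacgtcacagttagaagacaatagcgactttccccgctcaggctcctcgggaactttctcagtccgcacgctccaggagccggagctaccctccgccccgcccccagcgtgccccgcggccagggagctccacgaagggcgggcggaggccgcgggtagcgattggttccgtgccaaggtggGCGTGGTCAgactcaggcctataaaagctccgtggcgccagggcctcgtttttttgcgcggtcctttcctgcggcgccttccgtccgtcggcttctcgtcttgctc
Prdx1: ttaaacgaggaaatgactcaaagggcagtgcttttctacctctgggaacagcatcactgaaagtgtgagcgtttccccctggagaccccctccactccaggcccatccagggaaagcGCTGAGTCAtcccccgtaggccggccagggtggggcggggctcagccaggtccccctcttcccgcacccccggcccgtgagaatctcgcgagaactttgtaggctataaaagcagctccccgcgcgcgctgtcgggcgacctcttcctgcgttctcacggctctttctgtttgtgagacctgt

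Wider lists gave the same side. In 28 antioxidant enzyme genes 25 had a lower mean, 10 past the unadjusted threshold (median -0.12), or 8 without PBS replicate 3, rCD5L replicate 1 or rCD5L replicate 3 to 15 without rCD5L replicate 2. Cat, catalase, stood at 268, 260.3, 344, 290.1 and 292 CPM in PBS replicates 1 to 5 and at 244, 250.0, 231, 222 and 241 CPM in rCD5L replicates 1 to 5, with no overlap between groups, a log2 fold change of -0.29 ± 0.069 and an edgeR adjusted p of 0.109. Gpx1, glutathione peroxidase 1, and Prdx5 had log2 fold changes of -0.27 ± 0.066 and -0.32 ± 0.088. Gpx3, the plasma glutathione peroxidase made by the proximal tubule, ranged over 3889.9 to 7722 CPM with PBS and 3305 to 5049.8 CPM with rCD5L. Among 31 genes of glutathione synthesis, reduction and conjugation 29 were lower, 15 past the threshold (median -0.23), or 11 without PBS replicate 3, rCD5L replicate 3 or rCD5L replicate 5 to 15 without PBS replicate 1 or rCD5L replicate 2. Gstm1, a transferase, had means of 373 ± 51.6 CPM with PBS and 293 ± 20.7 CPM with rCD5L (SD, n = 5 each), and Gstz1, which also acts in tyrosine breakdown, of 83.0 ± 13.6 CPM with PBS and 64.9 ± 5.25 CPM with rCD5L (SD, n = 5 each). Many of these enzymes are abundant in the proximal tubule, whose markers were lower in the same kidneys, and how far the one list carries the other was not tested.

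Iron and lipid peroxidation genes were mixed, with 17 of 25 on the negative side (median -0.021, or -0.059 without PBS replicate 1 to -0.020 without rCD5L replicate 2). Past the unadjusted threshold on that side were 4, or 3 without PBS replicate 5, rCD5L replicate 1 or rCD5L replicate 3 to 6 without PBS replicate 1, and the median was -0.046 with the length offset. Ftl1, the ferritin light chain, had means of 795 ± 36.3 CPM with PBS and 693 ± 32.0 CPM with rCD5L (SD, n = 5 each), without overlap, and Fth1, the heavy chain, a log2 fold change of -0.12 ± 0.078. Alox15, a lipoxygenase of some macrophages, was low but on the higher side, at 0.599, 0.606, 0.494, 0.948 and 0.335 CPM in PBS replicates 1 to 5 and at 1.34, 1.63, 1.54, 0.675 and 1.33 CPM in rCD5L replicates 1 to 5. Sources of superoxide, 8 genes of NADPH oxidases and related enzymes, had a median of 0.058 with 1 past the unadjusted threshold, or 0 to 2, the 2 without rCD5L replicate 2. The sign turned among the leave-one-out medians, which were -0.0073 without PBS replicate 5 to 0.10 without PBS replicate 1.

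Several immune lists lay on the other side. All 18 antigen presentation genes were on the positive side (median 0.20, or 0.14 without PBS replicate 4 to 0.36 without PBS replicate 1), but only 2 were past the unadjusted threshold. Ciita, the master regulator of MHC class II, stood at 60.7, 40.8, 38.3, 38.5 and 49.1 CPM in PBS replicates 1 to 5 and at 59.3, 57.4, 58.1, 66.7 and 55.5 CPM in rCD5L replicates 1 to 5. PBS replicate 1 was within the rCD5L range while the other PBS kidneys were below it, and the log2 fold change was 0.38 ± 0.11 with an edgeR adjusted p of 0.130. Cd74, the invariant chain, was at 1633 to 2831 CPM with PBS and 2391 to 2709 CPM with rCD5L. Leave-one-out counts past the unadjusted threshold were 1 to 18, the 18 without PBS replicate 1, and 6 of the 18 genes were past it with the length offset.

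The list of T, NK and B cell markers had a median of 0.24, or 0.12 without rCD5L replicate 1 to 0.37 without PBS replicate 2. Markers of T and NK cells were on the same side as antigen presentation, 12 of 14 on the positive side at a median of 0.42. Of these 3 were past the unadjusted threshold, or 2 to 12, the 12 without PBS replicate 1, and the median was 0.73 without PBS replicate 1. Cd4 stood at 14.2, 7.87, 8.69, 7.64 and 8.09 CPM in PBS replicates 1 to 5 and at 14.3, 16.6, 12.1, 15.8 and 14.6 CPM in rCD5L replicates 1 to 5. PBS replicate 1 again lay among the rCD5L kidneys, and the log2 fold change was 0.65 ± 0.16 (edgeR adjusted p 0.113). Foxp3, the factor of regulatory T cells, stood at 1.61, 1.51, 1.73, 1.45 and 1.05 CPM in PBS replicates 1 to 5 and at 2.18, 2.01, 3.21, 3.996 and 2.21 CPM in rCD5L replicates 1 to 5, low in every kidney and without overlap (log2 fold change 0.88 ± 0.23). B and plasma cell markers had a median of -0.27, with 8 of 13 negative, but without PBS replicate 3 the median was 0.20 and 8 were positive. Without PBS replicate 1 it was -0.13, and the immunoglobulin gene Ighg1 was spread over 0.198 to 6.25 CPM with PBS and 4.80 to 15.3 CPM with rCD5L.

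Interferon-stimulated genes were higher in 21 of 25 cases (median 0.15), 7 past the unadjusted threshold. Leave-one-out counts past it were 4 without PBS replicate 5 or rCD5L replicate 4 to 11 without PBS replicate 1, and the number higher was 17 without PBS replicate 3 or PBS replicate 5 to 24 without PBS replicate 2. Oas3, which makes the activator of RNase L, stood at 5.02, 3.85, 3.56, 5.13 and 4.21 CPM in PBS replicates 1 to 5 and at 7.66, 4.23, 6.83, 5.97 and 8.13 CPM in rCD5L replicates 1 to 5, with a log2 fold change of 0.60 ± 0.18 and an edgeR adjusted p of 0.137. Irf7 and Oas1a had log2 fold changes of 0.25 ± 0.083 and 0.33 ± 0.10. Of 37 cytokine and chemokine genes, 22 were on the positive side (median 0.060, or 0.045 without rCD5L replicate 4 to 0.12 without PBS replicate 1) and 10 past the threshold, all 10 of them higher. Chemokines made most of this, 17 of 22 on the positive side at a median of 0.22, whereas 15 cytokines had a median of -0.030, or -0.088 without PBS replicate 3.

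Ccl8, a monocyte and T cell attractant, stood at 17.7, 13.4, 8.30, 10.4 and 6.90 CPM in PBS replicates 1 to 5 and at 14.8, 19.7, 29.0, 17.8 and 21.2 CPM in rCD5L replicates 1 to 5, at a log2 fold change of 0.85 ± 0.23. Tnf, the inflammatory cytokine, stood at 2.99, 3.12, 2.91, 2.90 and 2.92 CPM in PBS replicates 1 to 5 and at 3.79, 4.56, 3.98, 5.14 and 4.09 CPM in rCD5L replicates 1 to 5. All PBS kidneys were close together and below all rCD5L kidneys, with a log2 fold change of 0.53 ± 0.14 and an edgeR adjusted p of 0.119. Csf1, the growth factor of macrophages, had means of 66.9 ± 5.78 CPM with PBS and 79.3 ± 8.07 CPM with rCD5L (SD, n = 5 each). Il1b had no clear side, at 17.2 to 25.2 CPM with PBS and 9.27 to 44.6 CPM with rCD5L.

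Macrophage and monocyte markers were less one-sided, with 15 of 23 positive and a median of 0.039, or -0.0056 without PBS replicate 3 to 0.14 without PBS replicate 2. With the length offset it was 0.065. Past the unadjusted threshold were 4 genes on the higher and 1 on the lower side, and log2 fold changes ran from -1.17 to 2.67. Without PBS replicate 3, 10 were positive and 13 negative, with 4 and 2 past the threshold. The markers named next were all on the positive side, while 8 of the 23 were negative. The mannose receptor Mrc1 and the fractalkine receptor Cx3cr1 had log2 fold changes of 0.20 ± 0.066 and 0.29 ± 0.11, and Adgre1, which encodes F4/80, one of 0.10 ± 0.10. Chil3, a secreted protein of alternatively activated macrophages, stood at 0.967, 1.25, 0.642, 3.79 and 0.814 CPM in PBS replicates 1 to 5 and at 1.11, 12.3, 5.29, 1.04 and 26.5 CPM in rCD5L replicates 1 to 5. Its fold change was the widest of any gene named here, with a log2 value of 2.67 ± 0.79, and its rCD5L kidneys were widely scattered. The 5 tested neutrophil markers were all on the negative side (median -0.62) with 0 past the unadjusted threshold, or 0 to 3, the 3 without PBS replicate 3. Leave-one-out medians were -0.76 without PBS replicate 3 to -0.22 without PBS replicate 4, the number on the negative side was 3 to 5, the 3 without PBS replicate 4, and the summed level was 30.8 CPM in PBS replicate 4 and 22.3 CPM in PBS replicate 2, against 8.64 to 11.8 CPM in the other PBS kidneys and 9.34 to 14.2 CPM with rCD5L. The median by limma on log2(FPKM + 1) was -0.18. S100a9 was at 2.30 to 11.4 CPM with PBS and 2.67 to 5.02 CPM with rCD5L. Complement genes were split, 10 and 8 (median 0.034, or -0.010 without PBS replicate 3 to 0.087 without PBS replicate 1), with C3, the central component, at 0.29 ± 0.12, and genes of damage signals and the inflammasome were split 13 and 12 (median 0.033, or -0.012 without PBS replicate 3 to 0.057 without rCD5L replicate 1).

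**Figure D4:**
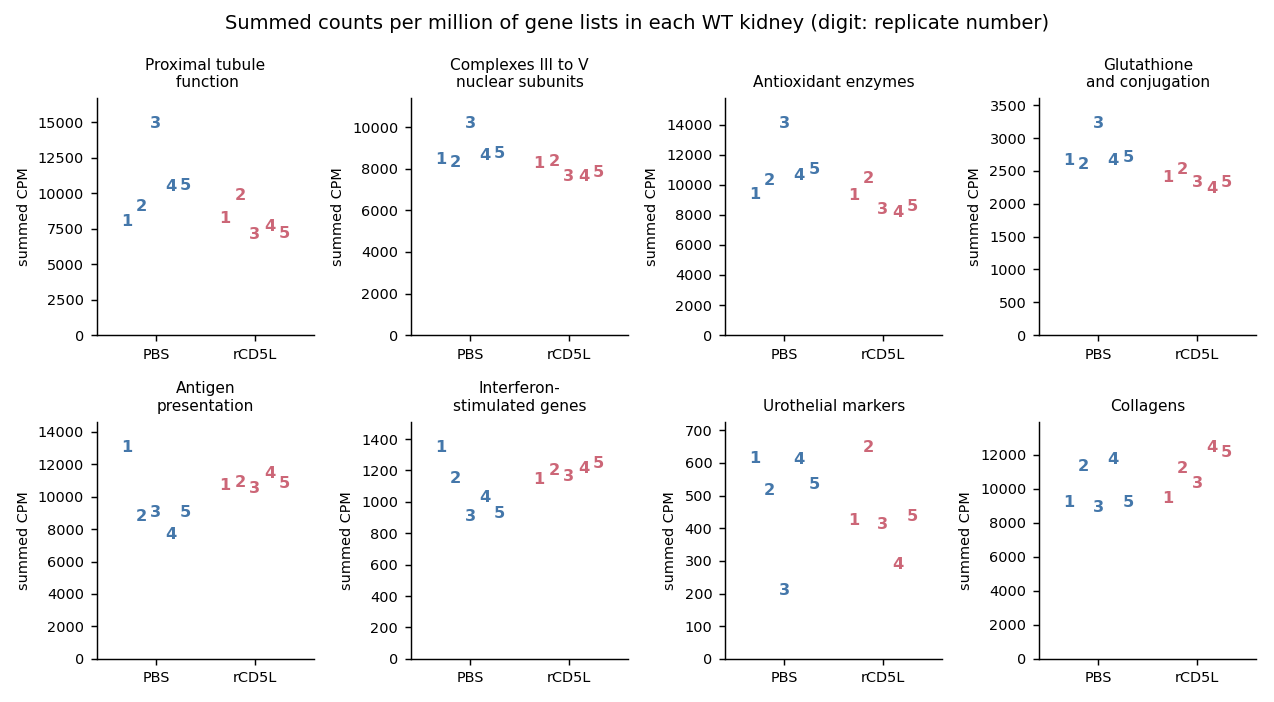
Summed CPM of 8 gene lists in each WT kidney (linear axes), with the digit giving the kidney's replicate number within its group. PBS replicate 3 is the highest kidney for the proximal tubule and complexes III to V lists, and PBS replicate 1 the highest for antigen presentation.

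Scavenger and endocytic receptors, listed together with IgM and its receptors, did not lie to one side. Over these 27 genes 14 were positive and 13 negative (median 0.013, or -0.046 without PBS replicate 5 to 0.046 without PBS replicate 2). The 19 scavenger and endocytic receptors had 11 positive and 8 negative (median 0.020). The 8 genes of IgM and its receptors had 3 positive and 5 negative (median -0.11). Havcr1, which encodes KIM-1, stood at 505, 589, 598, 442 and 632 CPM in PBS replicates 1 to 5 and at 489, 569.8, 471, 639 and 508 CPM in rCD5L replicates 1 to 5. The groups overlapped throughout, with a log2 fold change of -0.047 ± 0.10 and a 95% interval of -0.26 to 0.17. Lrp1, a large endocytic receptor, was the single member past the unadjusted threshold with all kidneys, with means of 329 ± 36.9 CPM with PBS and 387 ± 45.2 CPM with rCD5L (SD, n = 5 each). Leave-one-out counts past the threshold over the 27 genes were 0 without rCD5L replicate 5 to 5 without PBS replicate 1. Tubular injury and repair genes were split 11 and 11 (median 0.0008, or -0.059 without PBS replicate 4 to 0.038 without PBS replicate 5), with Sox9, a marker of tubule cells in repair, at 28.0 to 41.5 CPM with PBS and 37.9 to 53.6 CPM with rCD5L (log2 fold change 0.41 ± 0.11, edgeR adjusted p 0.119).

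Fibrosis genes showed small differences in both directions. Collagens were on the positive side in 23 of 28 cases, at a median of 0.091 that was 0.045 with the length offset, and 3 were past the unadjusted threshold, or 1 with the offset. Leave-one-out counts past it were 1 without PBS replicate 1 to 9 without PBS replicate 4. The median without PBS replicate 3 was 0.050 with 19 of 28 positive, and leave-one-out medians were 0.049 without rCD5L replicate 4 to 0.17 without PBS replicate 4. Among the 3 were Col15a1, with means of 331 ± 26.7 CPM with PBS and 407 ± 54.4 CPM with rCD5L (SD, n = 5 each), and Col18a1, of 886 ± 69.6 CPM with PBS and 1009 ± 102 CPM with rCD5L (SD, n = 5 each), both basement membrane collagens. Of 35 other matrix genes 14 were positive (median -0.013, or -0.045 without PBS replicate 3 to 0.037 without PBS replicate 2), with Mmp7, a protease of injured tubules, at 35.04, 38.8, 47.3, 48.4 and 41.7 CPM in PBS replicates 1 to 5 and at 66.2, 53.3, 65.7, 70.0 and 44.0 CPM in rCD5L replicates 1 to 5. That was a log2 fold change of 0.50 ± 0.12 with an edgeR adjusted p of 0.109. Tnc, tenascin C, was at 0.32 ± 0.12. Of the 35 genes, 21 were negative, down to -0.89. Past the unadjusted threshold were 4 on the higher and 0 on the lower side, or 3 and 2 without PBS replicate 3. Fibroblast and myofibroblast markers were negative in 13 of 19 (median -0.11). Past the threshold on that side was 1 gene, or 1 to 4, the 4 without PBS replicate 3. Leave-one-out medians were -0.16 without PBS replicate 3 to -0.031 without rCD5L replicate 1, and limma on log2(FPKM + 1) gave -0.064. Acta2, smooth muscle actin, had means of 459.6 ± 91.9 CPM with PBS and 344 ± 61.5 CPM with rCD5L (SD, n = 5 each).

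In the TGF-β pathway 17 of 27 genes were positive (median 0.074, or 0.034 without PBS replicate 1 to 0.084 without PBS replicate 2), with 4 past the unadjusted threshold on that side, or 3 to 6, the 6 without PBS replicate 4. The ligands differed in side, Tgfb1 at 0.17 ± 0.078 and Tgfb3 at -0.25 ± 0.12. For 2 inhibitors of the signal the groups did not overlap. Ski, a corepressor of Smad proteins, had means of 162 ± 5.14 CPM with PBS and 186 ± 11.2 CPM with rCD5L (SD, n = 5 each), and Smad7, the inhibitory Smad, of 40.9 ± 3.04 CPM with PBS and 46.4 ± 1.85 CPM with rCD5L (SD, n = 5 each). Their log2 fold changes were 0.20 ± 0.050 and 0.18 ± 0.059, with edgeR adjusted p values of 0.113 and 0.161.

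Endothelial markers were on the negative side in 9 of 14 cases (median -0.086, or -0.14 without PBS replicate 1 to -0.037 without PBS replicate 4), 5 past the unadjusted threshold, or 3 without PBS replicate 2, PBS replicate 4 or rCD5L replicate 1 to 6 without PBS replicate 5. The median was -0.13 with the length offset. Pecam1, the junction protein CD31, stood at 209, 225, 199, 209 and 199 CPM in PBS replicates 1 to 5 and at 186, 186, 183, 175 and 166 CPM in rCD5L replicates 1 to 5. All rCD5L kidneys were below all PBS kidneys (log2 fold change -0.22 ± 0.051, edgeR adjusted p 0.107, DESeq2 0.00565). Erg, an endothelial transcription factor, also had groups that did not overlap, at 31.4 to 34.9 and 23.7 to 31.3 CPM. Egfl7 was at -0.28 ± 0.079. Gpihbp1 and Esm1, described above, are also made by endothelium.

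Of the cell death, proliferation, lysosome and autophagy, and stress response lists, only cell death held genes whose groups did not overlap. Cell death genes were split 12 and 10 (median 0.016, or -0.0017 without PBS replicate 1 to 0.035 without rCD5L replicate 4). Casp9, the initiator caspase, had means of 38.9 ± 2.88 CPM with PBS and 44.5 ± 1.06 CPM with rCD5L (SD, n = 5 each), and the pro-apoptotic Bax and Bid had log2 fold changes of -0.16 ± 0.049 and -0.17 ± 0.055, with no overlap for any of the 3 genes. Proliferation genes were positive in 22 of 27 (median 0.085, or 0.026 without PBS replicate 3 to 0.22 without PBS replicate 2), with 1 past the unadjusted threshold, or 0 to 5, the 5 without PBS replicate 2. Lysosome and autophagy genes were negative in 25 of 35 (median -0.053). Of 44 stress response genes 24 were negative (median -0.010, or -0.051 without PBS replicate 4 to 0.018 without PBS replicate 3), with Dusp1, an immediate early phosphatase, at 109 to 171 CPM with PBS and 70.8 to 126 CPM with rCD5L.

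Clock and glucocorticoid-responsive genes had a median of -0.015, or -0.040 without PBS replicate 2 to 0.035 without rCD5L replicate 4, but the 10 glucocorticoid-responsive genes were negative in 9 cases (median -0.21). Zbtb16, one of them, stood at 31.4, 40.8, 25.1, 22.7 and 9.72 CPM in PBS replicates 1 to 5 and at 12.1, 6.30, 14.7, 12.4 and 20.1 CPM in rCD5L replicates 1 to 5, with PBS replicate 5 among the rCD5L kidneys and a log2 fold change of -0.98 ± 0.32. Mt1, a metallothionein, was at -0.41 ± 0.12. Markers of tissues beside the kidney were low apart from red cell genes. Those summed to 229 to 515 CPM with PBS and 39.8 to 373 CPM with rCD5L. The 3 epididymal genes that could be tested, Lcn5, Crisp1 and Adam7, had log2 fold changes of 0.70, 0.85 and 0.81, all past the unadjusted threshold. Their means with PBS and rCD5L were 4.29 and 6.97 CPM for Lcn5, 3.39 and 6.11 CPM for Crisp1 and 3.04 and 5.31 CPM for Adam7, and their part in other results was not tested. Red cell genes were negative in 5 of 5 (median -0.65) with 0 past it, or 0 to 2, the 2 without rCD5L replicate 2 or rCD5L replicate 5. Over all 19 tested genes of the list the median was -0.18, or -0.36 without rCD5L replicate 3 to -0.10 without PBS replicate 1.

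Whether the WT response differed from that of CD5L KO kidneys was tested as an interaction over all 19 kidneys. Of 18454 genes 0 (0%) passed an adjusted p under 0.05 in edgeR's quasi-likelihood test, with a smallest adjusted p of 0.731. At the unadjusted threshold the response in WT was above that in CD5L KO for 340 genes (1.84%) and below it for 814 (4.41%). The KO kidneys alone gave 0 of 17467 genes at an adjusted p under 0.05 and 502 at the unadjusted threshold, with a biological coefficient of variation of 28.8%.

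Several lists with a negative median in WT had a positive one in CD5L KO kidneys, and most of its size rested on 1 KO kidney. For proximal tubule genes the median was -0.36 in WT and 1.22 in CD5L KO, with the WT response below that in KO for 23 of 37 at the unadjusted threshold. Without CD5L KO rCD5L replicate 4 the KO median was 0.0095 and 1 of the 37 was past it, beside 2.94% of all genes. For the redox and iron list the KO median was 0.39 with that kidney and 0.13 without it, and 6 and 3 of 18 genes were past the threshold. Complex I had KO medians of 0.24 and -0.075, so the side changed. Antigen presentation had KO medians of 0.0075 and 0.19, the latter near the WT median of 0.20.

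**Figure D5:**
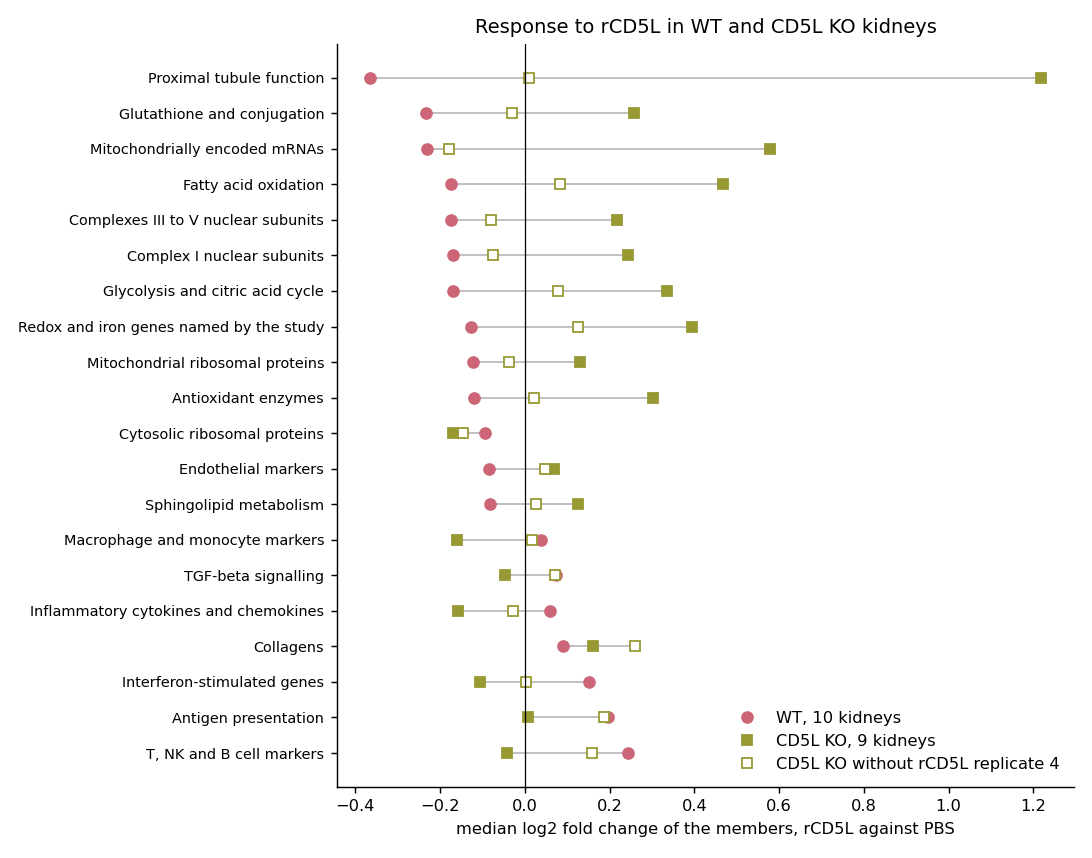
Median difference on the log2 scale between rCD5L and PBS over the members of each gene list in WT kidneys (10 kidneys), in CD5L KO kidneys (9 kidneys) and in CD5L KO kidneys without rCD5L replicate 4 (open squares). The KO median of the proximal tubule list is 1.22 with that kidney and 0.0095 without it, against -0.36 in WT.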

How the data were processed

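Kidney RNA from 19 UUO mice was sequenced by the authors as 150-bp paired-end reads from random hexamer libraries. Per the labels and the study's methods, reads were trimmed with Trimmomatic, aligned with HISAT2 to GRCm38/mm10 and counted with featureCounts. Tool versions, the annotation release and the strand setting are not given in the sources used here, so reads of overlapping or antisense genes could not be told apart; 49 of the 114 genes named overlap another annotated gene. The deposited table holds whole-number read counts and FPKM values per gene, the latter computed by the authors, and the FPKM values were used only as an alternative.

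Counts of the 5 PBS and 5 rCD5L WT kidneys were TMM-scaled and filtered (filterByExpr, minimum count 10), leaving 17455 of 54532 genes, and tested with edgeR 4.0.16 (glmQLFit and glmQLFTest, R 4.3.3) with Benjamini-Hochberg adjustment at 0.05. DESeq2 1.42.0 and limma 3.58.1 served as alternatives, and figures were drawn with matplotlib 3.10.9. The interaction of genotype and treatment was fitted over all 19 kidneys. The length offset was 1 lowess curve (span 0.3), fitted across genes to the WT treatment difference on the log2 scale by log2 length. It was applied to the rCD5L libraries only, and no curve was fitted to a library by itself. Intervals are at 95% and cover the spread between these mice only. The scripts were tested on simulated data.

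Named genes were Cd5l; the 12 genes of smallest p in each direction whose log2 CPM averaged 1 or more, since none passed; up to 3 of smallest p in each of 41 gene lists; and genes the study names. Those shown were taken from this set, and some of its genes are not reported here. The comparison and lists were chosen with earlier results of these data known, and lists without WT PBS replicates 1 or 3 or CD5L KO rCD5L replicate 4 were counted after the data were seen. Promoters came from RefSeq, GRCm38.p6, and a protein sequence of CD5L was not used here.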

Additional observations from a re-analysis of the deposited data

Results flagged for a closer look

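Each of 312 sets of 5 kidneys (a gene or a list's summed level in 1 group) was examined for a kidney far from the other 4, by Dixon's gap test at 0.71, and 24 were found. Chance alone flags about 1 in 20 such groups.

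WT PBS replicate 1 stood apart in gene level, with 14.2 CPM for Cd4 (other kidneys of the group 7.64 to 8.69). WT PBS replicate 1 stood apart in summed list level, with 13061 CPM for the Antigen presentation list (other kidneys of the group 7652 to 8999). WT PBS replicate 2 stood apart in gene level, with 57.2 CPM for Prex1 (other kidneys of the group 47.2 to 49.6). WT PBS replicate 3 stood apart in gene level, with 294 CPM for Sod1 (other kidneys of the group 238 to 254), 171 CPM for Dusp1 (other kidneys of the group 109 to 125), 213 CPM for Ndufv1 (other kidneys of the group 174 to 184), 178 CPM for Cox5b (other kidneys of the group 144 to 147) and 505 CPM for Cox6a1 (other kidneys of the group 409.8 to 417). WT PBS replicate 3 stood apart in summed list level, with 3225 CPM for the Glutathione and conjugation list (other kidneys of the group 2595 to 2703), 209.8 CPM for the Urothelial markers list (other kidneys of the group 514 to 613), 3803 CPM for the Complex I nuclear subunits list (other kidneys of the group 3164 to 3338) and 10183 CPM for the Complexes III to V nuclear subunits list (other kidneys of the group 8286 to 8733). WT PBS replicate 4 stood apart in gene level, with 3.79 CPM for Chil3 (other kidneys of the group 0.642 to 1.25). WT PBS replicate 5 stood apart in gene level, with 35.6 CPM for Smad7 (other kidneys of the group 41.5 to 43.0) and 65.5 CPM for Egfl7 (other kidneys of the group 82.7 to 87.0).

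WT rCD5L replicate 1 stood apart in gene level, with 135 CPM for Ehhadh (other kidneys of the group 112 to 117). WT rCD5L replicate 1 stood apart in summed list level, with 1887 CPM for the Nrf2 control list (other kidneys of the group 1959 to 1979.7). WT rCD5L replicate 2 stood apart in gene level, with 77.0 CPM for Cda (other kidneys of the group 62.6 to 65.6) and 279 CPM for Prdx2 (other kidneys of the group 249 to 254). WT rCD5L replicate 4 stood apart in gene level, with 94.4 CPM for Sorbs2 (other kidneys of the group 80.5 to 83.0), 366 CPM for Tnc (other kidneys of the group 218 to 250.0) and 44.6 CPM for Il1b (other kidneys of the group 9.27 to 18.9). WT rCD5L replicate 5 stood apart in gene level, with 211 CPM for Prrc2b (other kidneys of the group 184 to 188) and 206 CPM for Ski (other kidneys of the group 177 to 184).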

How the results depend on the processing

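The count of genes past an adjusted p of 0.05 in WT was 0 and depended on the method. DESeq2 called 542 genes (234 higher, 308 lower), edgeR with no filter on low counts called 137 (43 higher, 94 lower), and leaving out 1 kidney at a time gave 0 to 39, the 39 (23 higher, 16 lower) without WT PBS replicate 1. Of the 137, 111 were also DESeq2 calls, and of the 39, 19 were. The cause was not tested. RLE factors, 10 counts in every kidney, 1 fit over all 19 kidneys, the length offset and limma on log2(FPKM + 1) and log2(FPKM + 0.1) gave 0, as did the interaction under every alternative run.

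Groups shared replicate numbers, but same-numbered kidneys did not deviate together (correlations of -0.0450 to -0.00807), so the numbers were not taken as pairs, and a fit with the replicate block called 0 genes, also with the length offset.

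Of 113 genes, 3 turned direction when 1 kidney was left out, with log2 fold changes of -0.0092 for Txnrd1 without WT PBS replicate 1 (range over all such settings to 0.084), 0.0052 for Havcr1 without WT PBS replicate 5 (range to -0.12) and 0.073 for Il1b without WT rCD5L replicate 1 (range to -0.61, without WT rCD5L replicate 4). List medians turned sign for at most 7 of 41 lists, the 7 without WT PBS replicate 3. With 5 kidneys a group, counts of a few reads, as for Cd5l, could not show a difference.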

Other observations

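Gapdh was chosen after its values were seen, because it was the farthest member of the glycolysis list. It stood at 130.3, 90.2, 12.6, 9.87 and 7.85 CPM in PBS replicates 1 to 5 and 8.15, 7.22, 10.3, 7.37 and 29.7 CPM in rCD5L replicates 1 to 5, with a log2 fold change of -1.99 ± 0.73 and an edgeR adjusted p of 0.201. PBS replicates 1 and 2 and rCD5L replicate 5 were above the other 7 kidneys. Gapdh has many near-identical pseudogenes with which it may share reads, so these values are uncertain.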
